A study of Mus musculus with 3 samples.

Results

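The cornified envelope is the layer of cross-linked protein that replaces the plasma membrane of a keratinocyte at the end of its life, and 10 mouse genes of its making are described here across the keratinocytes of the anorectal junction. They are the small proline-rich protein genes Sprr1a, Sprr1b, Sprr2d and Sprr3, the structural genes Lor, Flg and Ivl, and Sbsn, Krtdap and Cnfn. They were found by gene symbol, all 10 of 10, among the 31053 genes of the deposited table. Their levels were read in each of the 10 clusters that the authors named keratinocytes (clusters 1, 3, 4, 5, 8, 9, 12, 13, 17 and 26) and on each experimental day. All mice were C57Bl/6, bought at 6 weeks of age. The day 0 group had no treatment and normal histology. The day 7 and day 42 groups had 3% dextran sulfate sodium (DSS, a polysaccharide that injures the lining of the colon) in the drinking water for 6 days, and their tissue was labelled as severe colitis and as recovered. Distal colon and anus of 5 mice were pooled into 1 single-cell library per day, so there are no replicate libraries and no test between days. Intervals cover counting error only, not the spread between mice.

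A keratinocyte builds its envelope in order. Involucrin (Ivl) is laid down early under the membrane as a scaffold, transglutaminases then cross-link loricrin (Lor) and the SPRR proteins onto it, and filaggrin, cut from the profilaggrin product of Flg, bundles keratin filaments inside. Loricrin and filaggrin are abundant in dry, keratinized skin, whereas moist squamous linings rely more on SPRR proteins, several of which are also known to be induced in stressed epithelium. Suprabasin (Sbsn) and the product of Krtdap are secreted by differentiating keratinocytes, and cornifelin (Cnfn) is a small protein incorporated into the envelope.

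The 7 SPRR and structural genes lie together on chromosome 3 in the epidermal differentiation complex, within 1213 kb between bases 92080271 and 93293686 of GRCm38 (mm10). Sprr2d (92339140 to 92340873) and Flg (93273523 to 93293686) are on the plus strand. Lor (92080271 to 92083142), Sprr1b (92436809 to 92438789), Sprr3 (92456502 to 92458720), Sprr1a (92483952 to 92485895) and Ivl (92570902 to 92573735) are on the minus strand. The other 3 are on chromosome 7: Cnfn on the minus strand (25369724 down to 25367620), and Sbsn (30751471 to 30756134) and Krtdap (30787896 to 30791097) on the plus strand with starts 36.4 kb apart. All are protein-coding genes, with 2 exons in Sprr1a, Sprr1b, Sprr2d, Sprr3, Lor and Ivl, 3 in Flg and Sbsn, 5 in Cnfn and 6 in Krtdap. Their Ensembl identifiers are ENSMUSG00000050359 (Sprr1a), ENSMUSG00000048455 (Sprr1b), ENSMUSG00000042212 (Sprr2d), ENSMUSG00000045539 (Sprr3), ENSMUSG00000043165 (Lor), ENSMUSG00000102439 (Flg), ENSMUSG00000049128 (Ivl), ENSMUSG00000046056 (Sbsn), ENSMUSG00000074199 (Krtdap) and ENSMUSG00000063651 (Cnfn). These positions are from GENCODE M21, which is not known to be the annotation the authors counted with. The libraries read the 3' ends of transcripts, and for 9 of the genes no 50-base window of the last 300 bases occurs in another annotated gene. For Sbsn 92.0% of those windows also occur in the gene ENSMUSG00000109224, so its counts are less certain.

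Promoter windows (250 bases before to 50 after the gene start, RefSeq, build GRCm38.p6) were found for all 10 genes. The pair Sprr1a and Sprr2d moved apart between days, and the pair Sprr3 and Cnfn followed each other most closely across clusters, so these 4 are shown, 5′ to 3′, with matches to the AP-1 letters TGANTCA and to the TATA-box letters TATAAA in capitals.
Sprr1a promoter, chr3:92485832-92486131, - strand: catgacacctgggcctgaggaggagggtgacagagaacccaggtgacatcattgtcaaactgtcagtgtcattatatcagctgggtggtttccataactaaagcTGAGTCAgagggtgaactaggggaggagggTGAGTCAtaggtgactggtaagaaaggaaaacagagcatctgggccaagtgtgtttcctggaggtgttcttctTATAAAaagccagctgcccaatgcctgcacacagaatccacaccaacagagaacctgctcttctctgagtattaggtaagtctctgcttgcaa
Sprr2d promoter, chr3:92338890-92339189, + strand: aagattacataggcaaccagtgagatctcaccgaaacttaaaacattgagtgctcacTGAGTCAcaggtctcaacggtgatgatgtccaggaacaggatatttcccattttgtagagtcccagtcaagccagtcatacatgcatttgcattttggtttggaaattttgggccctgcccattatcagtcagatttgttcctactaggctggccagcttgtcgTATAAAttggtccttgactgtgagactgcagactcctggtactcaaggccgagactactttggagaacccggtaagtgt
Sprr3 promoter, chr3:92458671-92458970, - strand: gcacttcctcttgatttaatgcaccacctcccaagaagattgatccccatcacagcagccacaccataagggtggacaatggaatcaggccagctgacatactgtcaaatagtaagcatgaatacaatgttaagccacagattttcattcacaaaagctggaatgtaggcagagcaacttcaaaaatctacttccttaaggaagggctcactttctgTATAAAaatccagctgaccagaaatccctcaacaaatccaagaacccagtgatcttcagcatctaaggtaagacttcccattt
Cnfn promoter, chr7:25369675-25369974, - strand: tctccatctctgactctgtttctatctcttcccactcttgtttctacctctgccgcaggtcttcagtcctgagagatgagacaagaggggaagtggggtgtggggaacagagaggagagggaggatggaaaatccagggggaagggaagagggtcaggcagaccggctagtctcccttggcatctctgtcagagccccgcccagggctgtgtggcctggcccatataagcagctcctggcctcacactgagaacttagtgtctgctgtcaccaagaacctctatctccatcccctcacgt

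TGANTCA, searched on both strands, was present in 8 of the 10 windows and in 7.81% of all 32851 promoter windows of this length. Sprr3 and Cnfn were the windows without it. Sprr1a held 2 copies, starting at -146 and -116 from the gene start, and Sprr2d held 1 at -193. TATAAA was present in 8 of 10 windows against 13.6% of all windows, and Cnfn and Sbsn were without it. CACCC was present in 8 of 10 against 57.5%, GGAA in 10 of 10 against 96.0%, and AACCGGTT in 0 of 10 against 0.146%. The windows of the 4 SPRR genes matched each other at between 23.3% and 28% of positions when laid side by side without gaps. TATAAA started at -43, -30, -29 and -33 in Sprr1a, Sprr1b, Sprr2d and Sprr3. A comparison without gaps misses stretches that are alike but shifted, so these shares do not show whether the windows are related. A match of letters is a description of the window and does not show that a factor binds there.

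The libraries held 11037, 14376 and 11667 cells at days 0, 7 and 42, of which 3316, 9035 and 7970 were named keratinocytes, with median depths of 9168, 11481 and 6542 unique molecular identifiers (UMIs, each 1 captured RNA molecule). All 12 keratinocyte markers checked were at 10 CPM (UMIs of the gene per 1000000 UMIs of the cells) or more in these cells on every day. Between 40 and 55 cell barcodes were shared by a pair of libraries. Markers of other cells moved with the day in keratinocytes: the summed level of 5 neutrophil markers was 23.3, 1559.7 and 187 CPM at days 0, 7 and 42 (none at 0), and that of 10 columnar markers was 629.7, 492 and 1668 CPM. Summed hair follicle markers were at 626.5, 175.5 and 53.2 CPM in day order, sebaceous gland markers at 1836, 1911 and 308, and fibroblast markers at 122, 34.9 and 38.4. The neutrophil list holds S100a8 and S100a9, which stressed keratinocytes also make, and the part of these lists in the results was not tested.

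The keratinocyte clusters are called here by number, with the genes that lead them. Cluster 4 was led by Krt10 and Krt1, cluster 5 by Psca, Ltf and Sprr2d itself, cluster 8 by Cst6, Defb6 and Krt79. Averaged over the 3 libraries with equal weight, Sprr1b, Lor, Flg, Sbsn and Krtdap were highest in cluster 4, Sprr1a, Sprr2d, Sprr3 and Cnfn in cluster 5, and Ivl in cluster 8. Since the authors made the clusters from these same cells, this is a description and was not tested. Cluster 26 held 12, 20 and 3 cells and was left out. Cluster 12, whose cells were shallow, is described after the others and is not in the comparisons of clusters that come first. CPM are not corrected for transcript length, so each gene is compared with itself and not with the others.

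Among the SPRR genes, Sprr1a, whose product is cross-linked between other envelope proteins, averaged 3083 CPM in cluster 5 (1198 to 5324 over the days). In cluster 8 it averaged 974 (938 to 1003), in cluster 4 it averaged 693 (512 to 876) and in cluster 3, led by cell-cycle genes, 129 (97.4 to 158). The ranges of clusters 8 and 4 did not overlap. Cluster 9 was lowest at 13.2 (9.02 to 19.3). Sprr3 averaged 318 CPM (20.1 to 695) in cluster 5 and 20.5 (11.7 to 31.4) in cluster 4, and was at most 3.51 in clusters 1, 3, 8, 9, 13 and 17. Cluster 5 held 85.3%, 46.8% and 74.6% of the keratinocytes' Sprr3 UMIs in day order, and at day 7 cluster 4 held 33.9% and cluster 3 11.2%. The day 42 value of cluster 5 lay inside the range of cluster 4. Sprr2d averaged 427 CPM (59.1 to 718) in cluster 5 and 19.98 (10.98 to 37.7) in cluster 4. Sprr1b was highest in cluster 4, at an average of 139 CPM (59.95 to 245) against 33.7 (7.42 to 53.1) in cluster 5, and those ranges did not overlap.

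Lor and Flg, the keratinized-skin proteins, averaged 109 CPM (32.2 to 169.5) and 113 (72.04 to 146) in cluster 4. Outside cluster 4, Lor stayed at or below 20.2 CPM in every cluster but cluster 12. Flg reached 169 CPM in cluster 5 at day 0 and 5.52 to 10.1 later, so the ranges of clusters 4 and 5 overlapped. Ivl was spread over more clusters: it averaged 69.7 CPM in cluster 8 (66.1 to 73.4), 44.9 in cluster 4 (27.3 to 63.7), 23.05 in cluster 5 (7.26 to 49.3) and 13.7 in cluster 9 (8.73 to 17.1). The range of cluster 8 lay above those of clusters 4 and 5, which overlapped each other.

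Krtdap averaged 5426 CPM (4904 to 5895) in cluster 4, 1786 (1383 to 2485) in cluster 8 and 76.2 (44.5 to 117) in cluster 13, led by the lipid genes Scd1 and Mgll, and the ranges of these 3 clusters did not overlap. Sbsn was spread more widely: 969 CPM (571 to 1295) in cluster 4, 926 (469 to 1639.6) in cluster 17, led by Cxcl14 and the hair-root genes Krt71 and Tchh, and 608 (328 to 933) in cluster 13. These 3 ranges overlapped. Cnfn averaged 1461 CPM (423 to 2671) in cluster 5 and 179.9 (154 to 194) in cluster 4, with no overlap, and at most 29.9 in clusters 1, 3, 8, 9, 13 and 17.

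**Figure D1:**
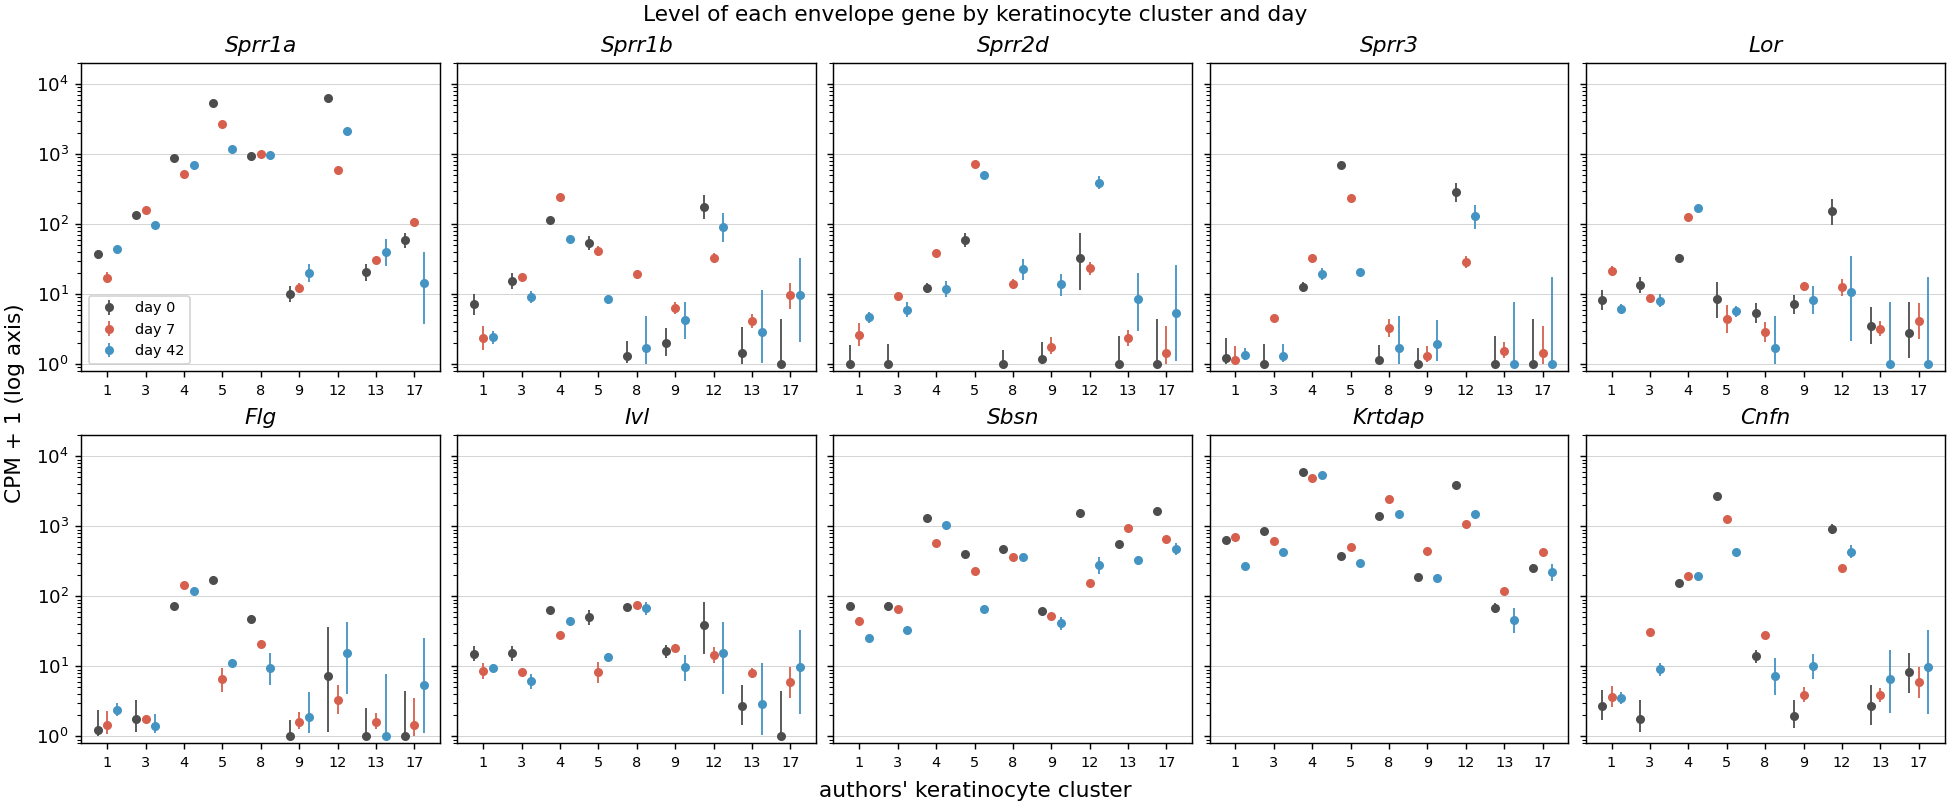
Level of each gene (CPM plus 1, log axis) in each authors' keratinocyte cluster with at least 50 cells, at day 0 (grey), day 7 (red) and day 42 (blue), with bars for exact 95% counting intervals and 1 pooled library per day. Cluster 4 is highest for Krtdap at 4904 to 5895 CPM, while in cluster 5 Sprr3 runs from 695 CPM at day 0 to 20.1 at day 42.

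Cluster 12 stood apart and its values are given separately. Its cells were shallow (median 1948, 1672.5 and 1010.5 UMIs) and its median share of mitochondrial UMIs was 0.179%, 5.001% and 0.225%. Averaged over the days it was second to cluster 5 for Sprr1a, Sprr2d, Sprr3 and Cnfn and second to cluster 4 for Sprr1b, Lor and Krtdap. For Sprr1a the averages were close, 3083 CPM in cluster 5 and 3041 in cluster 12. Cluster 12 was the higher of them at days 0 and 42. Sprr1a was at 6401, 591 and 2131 CPM there in day order, Sprr3 at 285, 27.9 and 129, Sprr2d at 31.7, 22.4 and 393, and Cnfn at 919.9, 248.999 and 436. Krtdap was at 3933, 1069 and 1479 CPM and Sbsn at 1548, 155 and 278. By the 2-fold rule given with the comparison of days, 0 of 9 genes tested were higher in cluster 12 at day 7 against day 0 and 8 lower (all tested but Sprr2d), where 20.3% of 8169 genes were higher and 4.91% lower. For day 42 against day 0, 1 of 10 was higher (Sprr2d) and 6 lower (Sprr1a, Sprr3, Lor, Sbsn, Krtdap and Cnfn), where 17.3% of 7543 genes were higher and 9.24% lower. Against day 7, 4 of 10 were higher at day 42 (Sprr1a, Sprr1b, Sprr2d and Sprr3) and 0 lower, where 4.04% of 7962 genes were higher and 10.6% lower. At day 0 these 51 cells were a mixture. The 9 cells with at least 1% mitochondrial UMIs, taken as a sum, held the hair-root keratins Krt25 (109643 CPM) and Krt71. How many of the 9 held them was not counted. The other 42, with under 1% mitochondrial UMIs, held none of either. Sprr1a was at 8969 CPM and Krtdap at 225 in the 9 cells, against 4518 and 6651 in the 42. Hair follicle markers in cluster 12 summed to 121612, 42.8 and 0 CPM in day order (all at 0 at day 42), neutrophil markers to 203, 6405 and 498, and endothelial markers to 0, 122 and 23.9, and their part in these counts was not tested. The counts of the 10 genes in all keratinocytes that follow were also made without cluster 12, and none of them moved by over 1.5 times. Among the pathway genes described later, leaving out cluster 12 changed the call of Tchh.

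The comparison of days asked whether envelope transcripts differed during colitis and after recovery. In all keratinocytes, Sprr2d was higher at each later day, and the genes that were lower numbered 2 at day 7 and 5 at day 42, each against day 0. A gene was counted as higher or lower where its level differed at least 2-fold, with 10 CPM added to both levels, among genes at 10 CPM or more in either library. At day 7 against day 0, 1 of 10 genes was higher (Sprr2d) and 2 were lower (Sprr1a and Sbsn), where 1.38% of the 8378 genes tested were higher and 1.17% lower. At day 42 against day 0, 1 was higher (Sprr2d) and 5 were lower (Sprr1b, Sprr3, Ivl, Sbsn and Krtdap), where 2.79% of 8401 genes were higher and 2.39% lower. Between days 42 and 7, Sprr2d was higher at day 42 and Sprr1b lower, where 2.09% of 8139 genes were higher and 1.72% lower. The median log2 ratio of the 10 genes was -0.75, -0.99 and -0.32 in the 3 comparisons, beside -0.0089, -0.034 and -0.039 over all genes tested. The comparisons share libraries, so they are not independent of each other.

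Sprr2d was at 5.71 CPM (95% counting interval 4.93 to 6.57), 30.4 (29.5 to 31.4) and 167 (163 to 169.9) in day order. The 3 intervals did not overlap, and the log2 ratios to day 0 were 1.36 and 3.49. Cluster 5, which held 2.62%, 1.79% and 27.01% of keratinocytes, supplied 40.7%, 63.4% and 96.7% of the Sprr2d UMIs. Without cluster 5 the day 42 log2 ratio of Sprr2d was 0.42 against day 0 and -0.24 against day 7. Sprr2d then did not count as higher at day 7 against day 0 either. Its lowest log2 ratio in that comparison under any alternative was 0.67. Sprr1b was at 37.5, 48.01 and 9.62 CPM, with a log2 ratio of -1.28 at day 42, and cluster 4, its main source, went from 21.02% to 14.6% and 8.23% of keratinocytes. Sprr3 was at 32.03, 13.7 and 8.602 CPM. Its log2 ratio of -1.18 at day 42 became 0.05 without the 10 cells that held most of its UMIs in each library.

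Sprr1a was lower at day 7 than at day 0 in the class as a whole, and Cnfn was inside 2-fold in each comparison. Sprr1a was at 682, 315 and 503 CPM, a log2 ratio of -1.09 at day 7 and of -0.43 at day 42, both against day 0. With the libraries scaled by median-of-ratios the day 7 values of Sprr1a and Sbsn were -0.98 and -0.97 and neither counted as lower. Cnfn was at 156, 86.6 and 155 CPM, so that days 0 and 42 lay within each other's counting intervals. Cluster 5 supplied 30.7%, 23.3% and 76.1% of the keratinocytes' Sprr1a UMIs and 67.3%, 39.98% and 87.1% of those of Cnfn. Without cluster 5 the day 42 log2 ratio against day 0 was -1.43 for Sprr1a and -0.68 for Cnfn. The log2 ratios of day 42 against day 7, 0.66 for Sprr1a and 0.78 for Cnfn, were then -0.47 and -0.68.

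Of the secreted products, Sbsn was lower at days 7 and 42 against day 0 and Krtdap at day 42. Krtdap was at 2178, 1319.6 and 757 CPM and Sbsn at 595, 277 and 136, with day 42 log2 ratios against day 0 of -1.51 and -2.05. The day 7 ratio of Krtdap was -0.72, and neither gene was past 2-fold between days 7 and 42 (-0.79 and -0.97). Cluster 13, the cluster led by lipid genes, held 6.58%, 39.3% and 2.24% of the keratinocytes' Sbsn UMIs in day order. Among the structural genes, Ivl was at 38.6, 16.1 and 13.5 CPM and Flg at 35.7, 23.8 and 13.9, with day 42 log2 ratios of -1.05 and -0.94, the second inside 2-fold. Lor was at 14.5, 24.96 and 18.6 CPM, inside 2-fold in each comparison. When each cluster was given equal weight, so that the mix of clusters did not enter, the day 42 log2 ratio of Krtdap against day 0 was -0.46 and that of Ivl -0.45, while Sbsn stayed past 2-fold at -1.18. Under the same weighting Sprr1a was at -1.39 and Cnfn at -1.71, both past 2-fold. Cluster 12, with 51 cells at day 0, entered this weighting like any other cluster. Sbsn reached 1548 CPM there, Sprr1a 6401 and Cnfn 919.9. The weighting was not run without cluster 12, so the part of that cluster in these ratios was not tested.

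**Figure D2:**
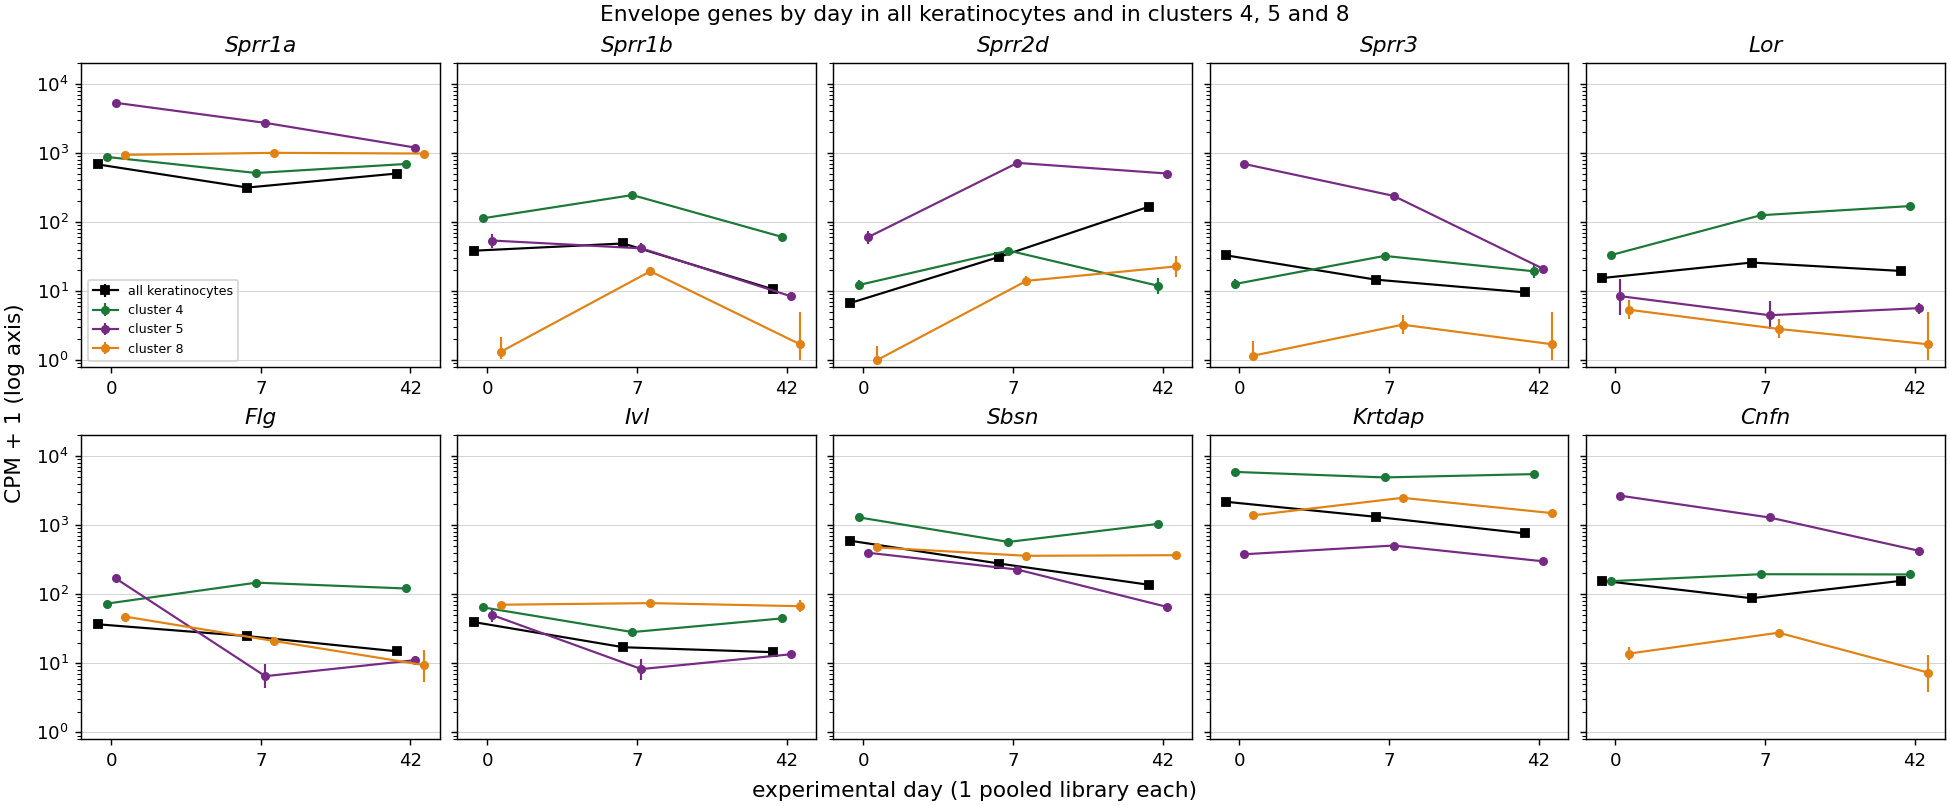
Level of each gene (CPM plus 1, log axis) at days 0, 7 and 42 in all keratinocytes (black squares) and in clusters 4 (green), 5 (purple) and 8 (orange), with bars for exact 95% counting intervals and 1 pooled library per day. Lines join the days of 1 cell group: Sprr2d stands at 5.71, 30.4 and 167 CPM in all keratinocytes while Sprr1a in cluster 8 stays between 938 and 1003.

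Within cluster 4 (697, 1315 and 656 cells) Krtdap differed by less than 2-fold between days. Its level was 5895 CPM (5847 to 5943), 4904 (4873 to 4936) and 5479 (5413 to 5547) in day order. At day 7 against day 0, 3 of 10 genes were higher (Sprr1b, Sprr2d and Lor) and 1 lower (Sbsn), where 0.633% of the 7425 genes tested were higher and 0.512% lower. Sprr1b was at 112, 245 and 59.95 CPM, so the day 7 library was the high one, with a log2 ratio of 1.06 against day 0 and of -1.87 for day 42 against day 7. Sprr2d was at 11.3, 37.7 and 10.98 CPM and followed the same order, with the intervals of days 0 and 42 overlapping. Sbsn was at 1295, 571 and 1042 CPM, lowest at day 7 with a log2 ratio of -1.17. Ivl, at 63.7, 27.3 and 43.7 CPM, had the same order and a log2 ratio of -0.98, just inside 2-fold. Of the 10 genes, 1 was higher at day 42 against day 0 (Lor) and 0 lower, where 0.295% of 7467 genes were higher and 0.121% lower. Against day 7, 0 were higher at day 42 and 2 lower (Sprr1b and Sprr2d), where 0.487% of 7393 genes were higher and 0.433% lower. The neutrophil markers in cluster 4 summed to 57.1, 2699 and 302 CPM (Retnlg at 0 at day 0), and their part in these values was not tested.

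Lor and Flg in cluster 4 came from a handful of cells. Lor was at 32.2, 124 and 169.5 CPM, with log2 ratios of 1.67 and 2.09 against day 0, and 10 cells held 81.4%, 89.98% and 96% of its UMIs. A single cell held 1436 of its 2365 UMIs at day 7. Without those 10 cells Lor was at 6.11, 12.5 and 6.96 CPM. Flg was at 72.04, 146 and 120.1 CPM and 10 cells held 94.7%, 93.5% and 96.5% of its UMIs. Without them it was at 3.92, 9.63 and 4.37. The cells highest in Flg, taken as a sum, were high in other envelope genes too. At day 7 the 10 of them held Krtdap at 16680.4 CPM against 4707 in the rest of cluster 4 and Sbsn at 6001 against 479.8. Lor was at 6062 against 25.2 and Sprr1b at 2371 against 209. The median of the 10 cells was 8 UMIs for Lor, so its sum came from few of them. Sprr3 differed between days: it was at 282 CPM in the 10 cells against 5.08 in the rest at day 0, at 0 against 31.9 at day 7 and at 368 against 6.33 at day 42. These 10 cells were deeper than the rest on each day, with median depths of 24497.5, 25250.5 and 15896 UMIs against 12915, 14082 and 6364. Of the 10 highest Flg cells and the 10 highest Lor cells, 6, 4 and 6 were the same at days 0, 7 and 42.

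Each of the genes concentrated differently. In cluster 4 the 10 highest cells held 6.93% to 12.7% of Krtdap UMIs, 18.3% to 37.2% of Ivl UMIs and 21% to 31.5% of Sbsn UMIs. For Sprr3 they held 85.2% to 95.6%. Sprr3 and Cnfn shared 6, 6 and 5 of their 10 highest cells at days 0, 7 and 42, and Sprr1a and Cnfn shared 7, 5 and 8. In cluster 8 the same 10-cell share was 13.6% to 33.3% for Krtdap and 18.1% to 40.4% for Ivl.

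**Figure D3:**
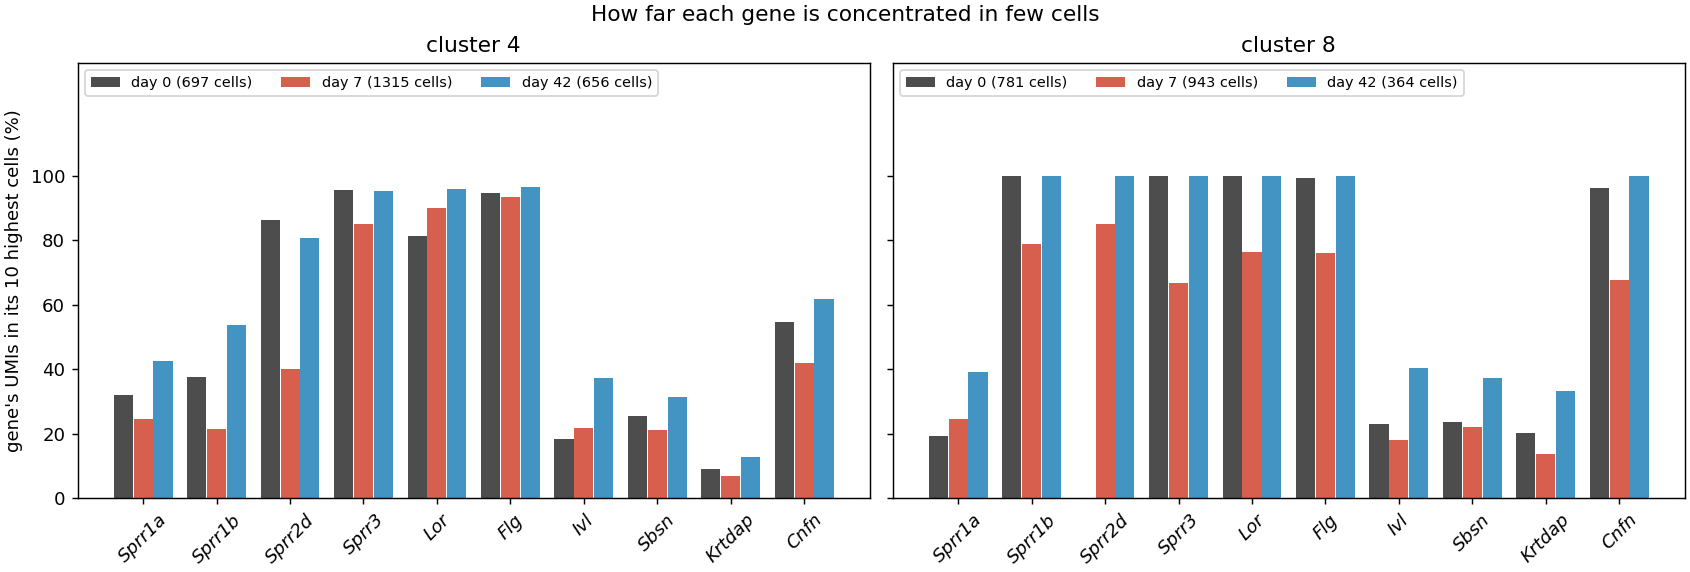
Percent of each gene's UMIs held by its 10 highest cells in cluster 4 and cluster 8 at day 0 (grey), day 7 (red) and day 42 (blue). In cluster 4 Flg lies between 93.5% and 96.5% and Krtdap at or below 12.7%, and Sprr2d has no bar at day 0 in cluster 8 because it had no UMI there.

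In cluster 5 (87, 162 and 2153 cells) Sprr2d was higher on both later days against day 0, and lower genes were 4 at day 7 and 7 at day 42. At day 7 against day 0, 1 of the 9 genes tested was higher (Sprr2d) and 4 were lower (Sprr3, Flg, Ivl and Cnfn), where 2.01% of 7353 genes were higher and 2.99% lower. At day 42 against day 0, 1 was higher (Sprr2d) and 7 lower (Sprr1a, Sprr1b, Sprr3, Flg, Ivl, Sbsn and Cnfn), where 1.8% of 7489 genes were higher and 2.44% lower. Krtdap stayed inside 2-fold, at 378, 506 and 299 CPM, and Lor was under 10 CPM on every day. Against day 7, 0 were higher at day 42 and 5 lower (Sprr1a, Sprr1b, Sprr3, Sbsn and Cnfn), where 1.09% of 7269 genes were higher and 0.757% lower. The median log2 ratio of the 9 genes was -0.96, -2.14 and -1.18, beside -0.051, 0.045 and 0.072 over all genes tested. The calls depended in part on few cells. Without the 10 highest cells of each gene, only Sprr3 and Sbsn were lower at day 42 against day 7. At day 7 against day 0 only Flg and Ivl were then lower, and Sprr1b was higher beside Sprr2d. Those cells are a larger part of a library with fewer cells.

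Sprr1a in cluster 5 was at 5324 CPM (5201 to 5449), 2728 (2673 to 2784) and 1198 (1182 to 1214) in day order, a log2 ratio of -2.14 for day 42 against day 0. Sprr3 was at 695 (651 to 741), 239 (223 to 255.6) and 20.1 (18.1 to 22.2), a log2 ratio of -4.55. Cnfn was at 2671, 1289 and 423 CPM, a log2 ratio of -2.63. For all 3 genes the libraries stood in the order of the days and the counting intervals did not overlap. The counts of day 0 rest on few cells: the 10 highest held 51.7% of Sprr1a, 95.5% of Sprr3 and 70.4% of Cnfn UMIs. Without them the levels were 3188, 1901 and 1119 CPM for Sprr1a, 38.01, 44.04 and 10.02 for Sprr3, and 980.3, 675 and 336 for Cnfn. Sprr3 was then still lower at day 42 than at day 0. Taking 10 cells from each library removes a larger part of the 87 cells of day 0 than of the 2153 of day 42, so the order of the levels without them is not read further.

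Flg in cluster 5 was at 169 CPM at day 0 and was found in 37.9% of cells, then at 5.52 in 4.94% and at 10.1 in 2.46%, log2 ratios of -3.53 and -3.15. Ivl was at 49.3, 7.26 and 12.5 CPM and Sbsn at 398, 226 and 64.5, and both were highest at day 0. Sprr1b was at 53.1, 40.7 and 7.42 CPM, with all 71 day 0 UMIs in 6 cells and 54 of them in 1 cell. Sprr2d was at 59.1 CPM (46.8 to 73.6), 718 (689.8 to 747) and 503 (493 to 514), with log2 ratios of 3.40 and 2.89 against day 0. At day 0, 96.2% of its UMIs were in 10 cells. Without the 10 highest cells it was at 2.77, 298 and 371 CPM, and here too those cells were a larger part of the cluster at day 0.

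The columnar markers in cluster 5 summed to 5218, 2352 and 3909.95 CPM and the neutrophil markers to 108, 1493 and 254 (Csf3r, Cxcr2 and Retnlg at 0 at day 0). The keratinocyte markers summed to 51276, 50967 and 49326. Median depth was 13340, 18530.5 and 7560 UMIs per cell. The part of these in the cluster 5 results was not tested.

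Shares of cells with a UMI were compared after each cell was thinned to 1000 UMIs. In cluster 5 the thinned share of cells with Sprr1a was 82.6% (72.9 to 89.9), 57.4% (49.4 to 65.1) and 38.3% (36.2 to 40.4) in day order, from unthinned shares of 91.95%, 81.5% and 63.4%. Cnfn was in 44.2%, 25.9% and 9.61%, and Sprr3 in 13.95% (7.42 to 23.1), 7.41% (3.89 to 12.6) and 1.39% (0.942 to 1.98). Sprr2d was in 5.81% (1.91 to 13.05), 22.2% (16.1 to 29.4) and 9.43% (8.23 to 10.7). Day 7 stood above both others for Sprr2d. Cells too shallow to thin numbered 1, 0 and 0. In T cells, which should lack these transcripts and whose median depths were 2064, 2260 and 1393 UMIs, the thinned share with Sprr1a was 1.54%, 0.926% and 3.33%, and that with Sprr2d was 0 of 195, 0.926% and 0 of 90 cells. Sprr3 was in 0 of 195, 108 and 90 thinned T cells, where the interval at day 42 reaches 4.02% and holds the day 42 share of Sprr3 in cluster 5. Cnfn was in 0%, 0% and 2.22% of them (at day 42 up to 7.80%), under its share in cluster 5 on each day.

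In cluster 4 the thinned share with Krtdap was 89.2%, 87.6% and 87.5%, with overlapping intervals, against 2.56%, 6.48% and 3.33% in T cells. Sprr1b was in 4.81% (3.33 to 6.69), 11.9% (10.2 to 13.8) and 2.62% (1.53 to 4.16) of cluster 4 cells, with day 7 above both others. Sprr1b was in 0 of 195, 0.926% (up to 5.05%) and 0 of 90 T cells, where the day 42 interval reaches 4.02% and holds the day 42 share of cluster 4, and in 0.0809%, 0.509% and 0.0730% of colonocytes (up to 0.236%, 1.18% and 0.406%), under the cluster 4 intervals on all 3 days. Lor, Flg and Sprr3 were in 0.437% to 1.85% of thinned cluster 4 cells, inside the T cell intervals, which reached up to 4.02% because only 195, 108 and 90 T cells could be thinned. Colonocytes, the columnar cells of the colon, gave a closer limit, with 3709, 983 and 1370 thinned cells and median depths of 9679, 4027 and 5879 UMIs. They held Flg in 0.0270%, 0.203% and 0.0730%, and the cluster 4 intervals of Flg lay above theirs on all 3 days. For Sprr3 (0.0539%, 0.102% and 0.0730% of colonocytes) the cluster 4 interval lay above at day 7 and overlapped at days 0 and 42, and for Lor (0.647%, 1.02% and 0.146%) it lay above at day 42 and overlapped at days 0 and 7. In cluster 5 the Sprr3 share at day 42 lay above that of colonocytes, whose interval reached 0.406%. In cluster 8 the thinned share with Sprr1a was 24.8%, 23.2% and 26.5%, and that with Ivl was 4.89%, 4.98% and 5.03%.

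**Figure D4:**
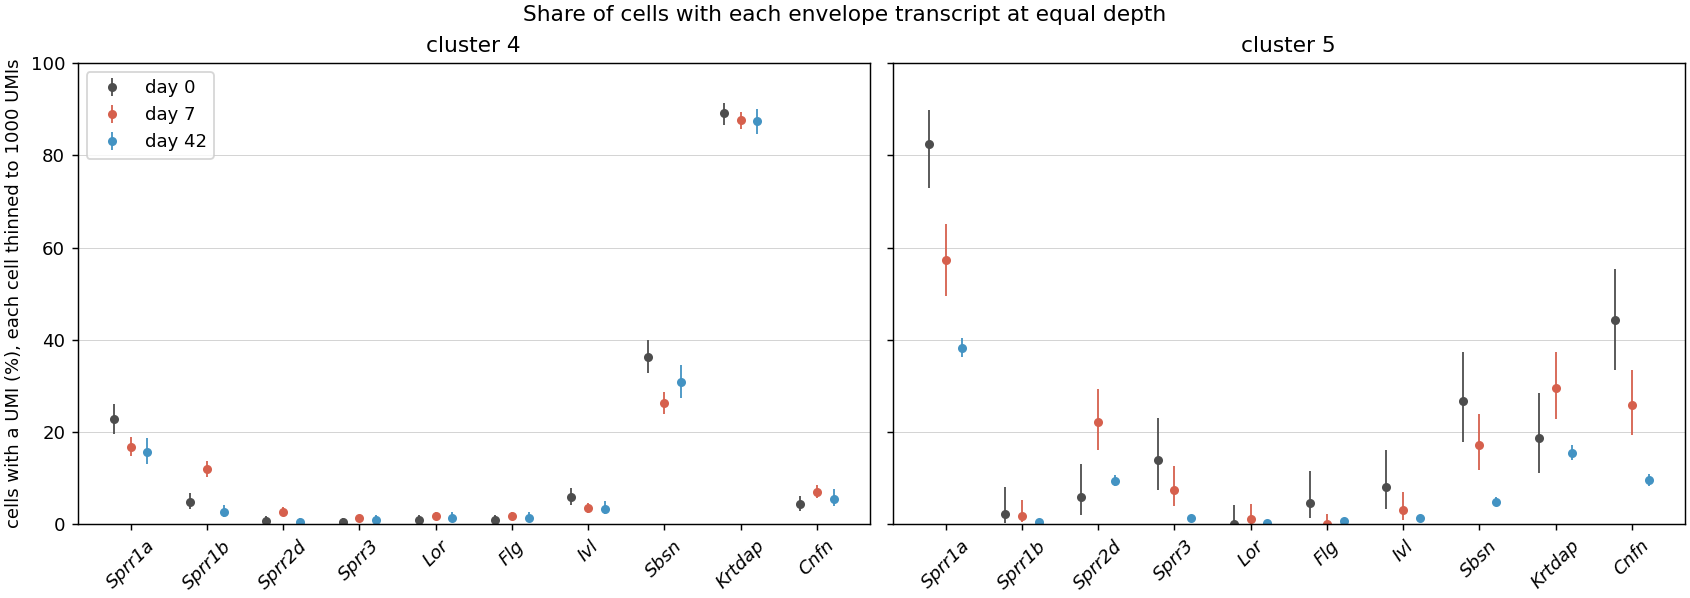
Percent of cells with at least 1 UMI of each gene in clusters 4 and 5 after each cell was thinned to 1000 UMIs, at day 0 (grey), day 7 (red) and day 42 (blue), with exact binomial 95% intervals and 1 pooled library per day. In cluster 5 Sprr1a steps down from 82.6% to 57.4% and 38.3%, while in cluster 4 Krtdap stays between 87.5% and 89.2%.

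In cluster 8 (781, 943 and 364 cells) Sprr1a and Ivl stayed close to their day 0 levels. Sprr1a was at 938, 1003 and 981 CPM and Ivl at 69.5, 73.4 and 66.1, and the counting intervals of Ivl overlapped on all days. At day 7 against day 0, 2 of 8 genes were higher (Sprr1b and Sprr2d) and 0 lower, where 0.609% of 8045 genes were higher and 0.348% lower. Sprr1b had 2, 170 and 1 UMIs in day order, and the ratio of CPM for day 7 over day 0 was 56.6 (15.4 to 472). Sprr2d had 0, 121 and 31 UMIs, or 13.1 CPM at day 7 and 21.8 at day 42, where a count of 0 allows up to 0.487 CPM. Cluster 8 UMIs of both genes sat in few cells: 10 cells held 78.8% of Sprr1b and 85.1% of Sprr2d at day 7, and without them neither counted as higher. Against day 0, 1 of 7 was higher at day 42 (Sprr2d) and 1 lower (Flg, from 46.6 to 8.44 CPM), where 0.247% of 8108 genes were higher and 0.0863% lower. Against day 7, 0 of 8 were higher at day 42 and 2 lower (Sprr1b and Cnfn), where 0.414% of 7974 genes were higher and 0.665% lower. Cnfn was at 12.8, 26.7 and 6.33 CPM. The neutrophil markers in cluster 8 summed to 4.22, 1069 and 227 CPM, and their part in these values was not tested.

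In clusters 1, 3 and 9 between 4 and 7 of the genes were tested in each comparison. In cluster 1, led by S100a4 and Krt15, a basal keratin, Krtdap was at 644, 707 and 266 CPM and Sbsn at 72.004, 43.9 and 24.3. Day 42 was the low library for both, with log2 ratios to day 0 of -1.24 and -1.26, and they were the 2 of 4 genes tested that were lower, where 0.993% of all genes were. Sprr1a there was at 36.002, 16.2 and 42.5 CPM and Lor at 7.35, 20.2 and 5.05, so day 7 was the low library for the first and the high one for the second. At day 42 against day 7, 1 of 4 was higher (Sprr1a) and 2 lower (Lor and Krtdap), where 2.23% of all genes were higher and 0.709% lower. Cnfn in the cell-cycle cluster 3 was at 0.780, 29.9 and 8.04 CPM, from 3, 1667 and 77 UMIs, so day 7 stood out. It was the 1 of 7 genes higher at day 7 against day 0 and the 1 of 5 lower at day 42 against day 7, where 2.59% and 0.845% of all genes were. Krtdap in cluster 9, led by H19 and Smoc2, was at 189, 443 and 182 CPM, and day 7 was again the high library with a log2 ratio of 1.19. It was the 1 of 5 genes higher at day 7 against day 0 and the 1 of 6 lower at day 42 against day 7, where 0.862% and 0.712% of all genes were. Sprr2d in cluster 9 was at 0.196, 0.785 and 12.9 CPM, from 1, 10 and 28 UMIs, and was the 1 gene higher at day 42 against either day, where 0.304% of all genes were higher against day 0 and 0.663% against day 7. The neutrophil markers were highest at day 7 in these clusters too. In day order they summed to 2.20, 276 and 128 CPM in cluster 1, 2.34, 933 and 110 in cluster 3, and 2.74, 2931 and 210 in cluster 9. Their part in these values was not tested.

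In clusters 13 and 17 only 3 of the genes were tested in each comparison. Sbsn in cluster 13 was at 562, 933 and 328 CPM and Krtdap at 66.7, 117 and 44.5, and both were lower at day 42 against day 7, where 2.42% of all genes were. Sbsn in cluster 17 (162, 236 and 63 cells) was at 1639.6, 668 and 469 CPM, highest at day 0, and was the 1 lower gene at day 7 against day 0, where 0.737% of all genes were. Sprr1a there was at 58.7, 107.7 and 13.3 CPM, the last from 3 UMIs. Both genes were lower in cluster 17 at day 42 against day 0, and Sprr1a against day 7, where 6.1% and 3.84% of all genes were. The hair follicle markers of cluster 17 summed to 499, 8518 and 9082 CPM in day order, so its day 0 cells held far fewer transcripts of the hair-root genes that lead it, and the part of this in its values was not tested.

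The other genes of the envelope pathway were followed as 7 lists of 93 genes, 92 of them measured. Most of the other precursors were low: of the 34 measured SPRR2, SPRR4, late cornified envelope and related genes, 3 reached 10 CPM in keratinocytes at day 7 or day 0. Sprr2a3 was at 132, 201 and 496 CPM and was the 1 gene of 2 tested that was higher at day 42 against day 0, where 2.79% of all genes tested were. In cluster 5, 4 of 8 tested were higher at day 7 against day 0, where 2.01% of all genes were, namely Sprr2e (0, 17.1 and 2.85 CPM over the days), Sprr2f (10.5, 80.1 and 2.69), Sprr2h (11.2, 119 and 16.8) and Sprr2i (0, 10.2 and 0.645). Their day 7 values were the high ones, whereas Sprr2d stayed high at day 42. The SPRR2 genes are close copies of each other, and reads of those other than Sprr2d may have been split between them. For Sprr2d no 50-base window of the last 300 bases occurred in another annotated gene. Crct1 in cluster 5 went the other way, at 518, 123 and 37.1 CPM. In cluster 4 it was at 11.4, 76.9 and 39.1 CPM, higher on both later days against day 0 and the 1 of 3 genes tested that was, where 0.633% and 0.295% of all genes were.

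The fused S100 genes Rptn, Tchh and Crnn, relatives of Flg that bind keratin filaments, were the 3 of 6 tested in cluster 5 and all 3 were lower at day 7 and at day 42 against day 0, where 2.99% and 2.44% of all genes were. Rptn was at 160.0, 5.81 and 10.4 CPM and Crnn at 153, 19.2 and 11.6. Their median log2 ratios were -2.48 and -2.91, beside -0.051 and 0.045 over all genes. In all keratinocytes 1 of 3 tested, Tchh (87.1, 36.3 and 21.9 CPM), was lower on both later days (1.17% and 2.39% of all genes). This rested on cluster 12: without it Tchh was at 10.1, 37.1 and 21.9 CPM, higher at day 7 and inside 2-fold at day 42 against day 0, with log2 ratios of 1.23 and 0.67 in place of -1.07 and -1.61. Hrnr was at 10.1, 5.93 and 3.80. In cluster 4 Rptn was high at day 7, at 0.31, 14.1 and 0.633 CPM.

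Of the 12 scaffold and cross-linking genes, 1 was higher and 3 lower in all keratinocytes at day 7, and 4 higher and 2 lower at day 42, each against day 0. Of all genes tested, 1.38% were higher and 1.17% lower at day 7, and 2.79% higher and 2.39% lower at day 42. The transglutaminases parted: Tgm1, the membrane-bound enzyme that attaches the envelope, was at 41.1, 108 and 192 CPM, and Tgm3 at 76.4, 26.997 and 18.3. The abundant Anxa1 (1404, 1928 and 5055 CPM), S100a11 (1187, 1759 and 2719) and S100a10 (869, 1129 and 2344) were higher at day 42. Cst6, a protease inhibitor and the leading gene of cluster 8, was at 4713, 1921 and 813, and Csta1 at 189.5, 67.3 and 262. Within cluster 5, Anxa1 stayed between 12216 and 14605 CPM. The envelope linkers Evpl (487, 207 and 189) and Ppl (653, 271 and 230.4) and the inhibitor Cst6 (573, 62.1 and 53.4) were among the 5 of 12 lower there at day 42 against day 0, and 0 were higher, where 2.44% of all genes were lower and 1.8% higher. In cluster 4, 0 of 11 tested were higher or lower in either comparison with day 0, where the shares of all genes were between 0.121% and 0.633%.

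Of the 9 filaggrin-processing and corneodesmosome genes, 3 of the 7 tested were lower in keratinocytes at day 42 against day 0 and 0 were higher, where 2.39% of all genes were lower and 2.79% higher. These were Asprv1, the protease that cuts profilaggrin (52.8, 42.8 and 14.7 CPM), Dsg1a (68.2, 15.8 and 13.4) and Dsc1 (32.6, 13.5 and 6.19). At day 7 against day 0, 2 of 7 were lower, Dsg1a and the protease inhibitor Spink5, and 0 higher, where 1.17% of all genes were lower and 1.38% higher. Spink5 was at 470.3, 171 and 461 CPM. Blmh, which degrades filaggrin peptides, was at 134, 168 and 106. Of the 12 barrier-lipid genes, 0 of 7 were past 2-fold at day 7 (1.38% and 1.17% of all genes) and 2 were lower at day 42 (2.39% of all genes), Elovl4 (116, 212 and 18.9 CPM) and Acer1 (31.15, 29.3 and 6.19). In cluster 5, 5 of 6 barrier-lipid genes tested were lower at day 42 against day 0, where 2.44% of all genes were, among them Ugcg, at 54.6, 19.2 and 21.2 CPM. In cluster 4, 0 of 8 were past 2-fold in any comparison, where 0.121% to 0.633% of all genes were in 1 direction.

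Most of the 15 regulators of terminal differentiation stayed inside 2-fold. In all keratinocytes Fosl1, an AP-1 subunit, was the 1 higher gene at day 7 and at day 42 against day 0 (1.38% and 2.79% of all genes), at 2.82, 20.3 and 27.8 CPM, and Hopx was the 1 lower gene at day 7 (1.17% of all genes), at 68.9, 18.1 and 67.4. The regulators with the highest levels were Klf4 (244, 194 and 228 CPM), Trp63 (312, 198 and 198) and Nfe2l2 (80.9, 122 and 124), all inside 2-fold in these comparisons. Within cluster 5 Hopx was at 802, 137 and 152 CPM, lower on both later days, and Nfe2l2 (54.6, 98.4 and 131) and Fosl1 (3.74, 14.8 and 23.3) were higher at day 42 against day 0, 2 of the 15 tested there, where 1.8% of all genes were. Of 4 other differentiation genes, Calm4 was at 2308, 1044 and 465 CPM in all keratinocytes and at 1127, 141 and 87.3 in cluster 5. Dmkn was at 1250.06, 1081 and 466 and Ly6d at 2523, 1801 and 3957. Calml3 was at 268, 116 and 220.07.

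Across the 27 combinations of cluster and day, the genes whose log2 CPM followed each member most closely were found among 2677 or 2678 genes, with the points sharing 3 libraries and, for each cluster, its depth. Sprr3 and Cnfn followed Map3k6 (Pearson r = 0.94 for each) and each other (r = 0.94), the closest pair among the 10 genes. Sprr1a followed Elf5 (0.94), Teddm3 (0.92) and Klk13 (0.90), and Sprr2d followed Prss27 (0.96), Prr13 (0.91) and Clca3b (0.89). Krtdap was closest to Krt1 (0.85), Serpinb3a (0.85) and Krt10 (0.84), and Lor to Serpinb12 (0.84), Gm94 (0.78) and Krt10 (0.78). Flg was closest to Pycard (0.84), Ly6g6e (0.83) and its protease Asprv1 (0.83). Ivl followed Ptgr1 (0.89), Sbsn followed Grhl1 (0.87) and Sprr1b followed Gm3776 (0.87). The least alike of the 10 were Sprr2d and Sbsn, with r = 0.017. These are descriptions of 27 points and carry no test.

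Few UMIs of these genes lay outside keratinocytes. Keratinocytes held between 88.1% and 98.7% of the UMIs of the genes on each day, except for Sprr1a (79.1%) and Lor (53.8%) at day 0. Colonocytes had Sprr1a at 129, 95.8 and 98.6 CPM and Lor at 7.96, 9.07 and 3.43, and secretory colonocytes had Sprr1a at 87.1, 622 and 104 CPM. The day 7 value came from 15 of 35 cells and was 72.4 CPM without the 10 highest cells. T cells had 14.5, 27.1 and 60.2 CPM of Sprr1a.

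A further difference ran with the share of mitochondrial UMIs. Keratinocytes with under 1% mitochondrial UMIs numbered 94, 633 and 159 at the 3 days, with median depths of 1784.5, 2105 and 1082 UMIs against 9302, 12362 and 6614 in the rest. In these cells Krtdap was at 7538 CPM against 2142 in the rest at day 0, and at 2573 against 1299 and 3682 against 745 on the later days. Cnfn was at 832 against 152, 360.006 against 81.99 and 947.5 against 152. All 10 genes were higher in these cells at days 0 and 42 and 9 at day 7, where Flg was at 21.4 against 23.8, beside 37.8%, 40.6% and 38.6% of all genes tested at days 0, 7 and 42. At least 2-fold higher were 10, 5 and 9 of the 10, beside 2.2%, 0.711% and 2.27% of all genes. The median log2 ratio of the 10 was 2.37, 1.11 and 2.48, beside -0.21, -0.10 and -0.17 over all genes. The cells were few, and the part of mitochondrial share in the results between days was not tested, though leaving out cluster 12, which held 42, 445 and 112 of them, is described above.

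**Figure D5:**
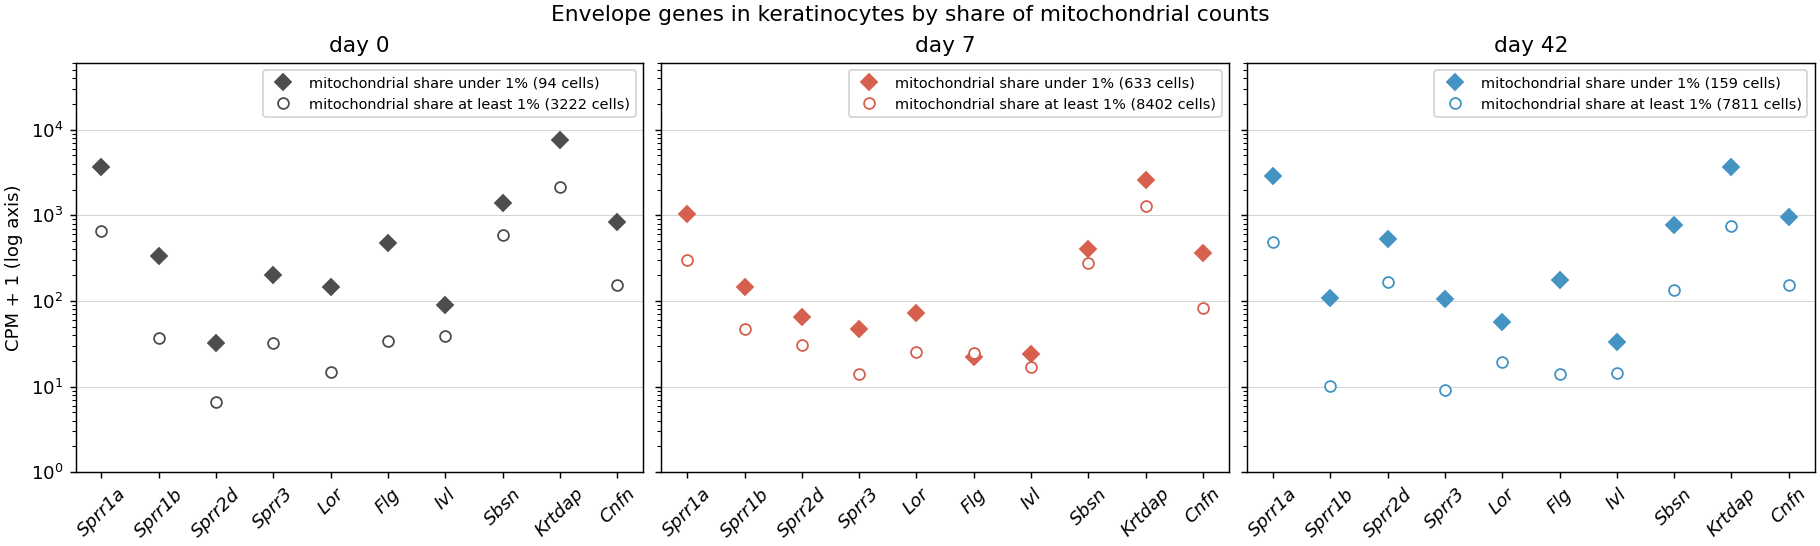
Level of each gene (CPM plus 1, log axis) in keratinocytes with under 1% mitochondrial UMIs (filled diamonds) and with at least 1% (open circles), 1 panel per day and 1 pooled library each. The diamonds lie above the circles for each gene and day but Flg at day 7, where 21.4 CPM stands beside 23.8.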

How the data were processed

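Single-cell libraries of distal colon and anus from 3 pools of 5 mice, 1 per day, were counted by the authors, and the submitters' processing notes name Cell Ranger 3.0.2 and mm10 without their roles. Per the labels' protocols, tissue was digested with trypsin-EDTA, dead cells were depleted and 10x Chromium 3' libraries were made. The deposited matrix holds UMI counts per gene and cell, not normalized. The authors' cell table gives clusters, cell names and a size factor, a ratio of each cell's total to a common total, which was checked on the file and not used to scale levels. Clusters and names are the authors' own; no cell was filtered and how the authors treated doublets is not given in the sources used here. Scrublet called 3.81%, 0% and 2.29% of cells, so it did not work at day 7, and leaving out the 5% of cells with the highest scores was run as an alternative.

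Counts were summed per gene, cluster and day and divided by all UMIs of those cells to give CPM, with exact Poisson intervals; shares of cells have exact Clopper-Pearson intervals, and all intervals are at 95% and cover counting error only. Log2 ratios have 10 CPM added. A gene was tested when at or above 10 CPM in either library and counted at 2-fold. A cluster needed 50 cells in both libraries. Shares were thinned to 1000 UMIs per cell. A count of 0 allows up to 3 UMIs. With 1 library per group no p-value was computed. On simulated counts the 2-fold count recovered 100% of 200 changed genes among 8073, 8034 and 7713 with 0 false calls. The simulated counts held counting error only, and the changed genes were at 50 CPM or more and changed by well over 2-fold. The result checks the computation. It does not cover the spread between mice or the recovery of changes near 2-fold or near 10 CPM. Levels and intervals were computed with scipy 1.17.1 and numpy 2.4.6 under Python 3.11.15, doublet scores with scanpy 1.11.5, and plots with matplotlib 3.10.9. The 10 genes, the pathway lists and the marker lists were chosen with earlier results of these data known. Named pathway genes are those past 2-fold and the 3 of each list with the highest mean CPM, with a few of them repeated for a second cell group, and some items are not reported here; genes followed across clusters are the 3 with the highest Pearson r.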

Additional observations from a re-analysis of the deposited data

Results flagged for a closer look

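The cells that the authors left as unknown (1159, 1289 and 924 cells at days 0, 7 and 42, with median depths of 1593, 1850 and 901.5 UMIs) are in none of the comparisons above, and 3 values in them stood above the untreated library. Sprr1b was at 12.2 CPM at day 0 and 66.3 at day 7, from 25 and 178 UMIs, and was at 35.0 CPM at day 7 without the 10 highest cells. After thinning to 1000 UMIs it was in 2.75% (1.86 to 3.91) of these cells at day 7, inside the interval of the 108 day 7 T cells (0.926%, 0.0234 to 5.05) and above that of the 983 colonocytes (0.509%, 0.165 to 1.18). Sprr2d was at 0.973, 14.5 and 49.6 CPM at days 0, 7 and 42, from 2, 39 and 48 UMIs. The 48 UMIs at day 42 lay in 20 cells, and without the 10 highest cells the level was 10.4 CPM. Sprr1a in the same cells was at 119, 141 and 104 CPM. What these cells are was not tested.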

How the results depend on the processing

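Among counts recomputed under an alternative, 144 stayed within 1.5 times and 41 did not. Of the single log2 ratios recomputed, 139 stayed within the counting interval of the reported value, 189 moved outside it, and 2 that were past 2-fold changed direction. In all keratinocytes at day 7 against day 0, 0 genes were lower under median-of-ratios scaling, under the mean of CPM per cell, after thinning to 1000 UMIs, or without the 10 cells with most UMIs of each gene. With a pseudocount of 1 CPM 4 were lower (Sprr1a, Sprr3, Ivl and Sbsn), and without cluster 5 it was 1 (Sbsn). Higher genes at day 7 numbered 2 by the mean of CPM per cell (Sprr2d and Lor), 0 among genes at 100 CPM or more and 0 without cluster 5. At day 42 against day 0, 3 were lower by the mean of CPM per cell and after thinning (Flg, Sbsn and Krtdap) and 2 at 100 CPM or more, and 0 were higher without cluster 5. Between days 42 and 7, 2 were lower at day 42 (Sprr1b and Sbsn) with totals without mitochondrial and ribosomal protein genes, a pseudocount of 1 CPM, the mean of CPM per cell, thinning, or without the 10 cells. With equal weight to clusters 0 were higher and 0 lower, at 100 CPM or more 0 were lower, and without cluster 5 0 were higher.

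Of the 30 log2 ratios in all keratinocytes, 19 kept their direction under all 11 alternatives and 11 did not. Of the 11 past 2-fold, 2 changed direction: that of Sprr3 at day 42 against day 0, 0.053 without its 10 highest cells, and that of Sprr2d at day 42 against day 7, -0.24 without cluster 5. The other 9 were inside 2-fold: Cnfn and Lor in each comparison, and Sprr3 at day 7 against day 0, Sprr1a at day 42 against day 7 and Ivl at day 42 against day 7. For day 42 against day 7 they reached -0.68 for Cnfn, -0.47 for Sprr1a, 0.086 for Lor and 0.024 for Ivl. At day 7 against day 0 they reached 0.24 for Cnfn, 0.25 for Sprr3 and -0.20 for Lor, and at day 42 against day 0 -0.11 for Lor. Sbsn and Krtdap were lower at day 42 than at day 0 in 11 of 11 settings, at -2.19 to -1.18 and -1.63 to -0.46. Cnfn in the same comparison ranged from -1.71 to 0.62.

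Within cluster 4 at day 7 against day 0, 5 genes were higher with a pseudocount of 1 CPM and 5 by the mean of CPM per cell, and the lower genes numbered 2, 2 without the 10 cells and 0 by the mean of CPM per cell. At day 42 against day 0, without the 10 cells 0 were higher and 1 lower (Sprr1b), and by the mean of CPM per cell 1 was lower (Flg). In cluster 5, without the 10 cells, 2 were higher (Sprr1b and Sprr2d) and 2 lower (Flg and Ivl) at day 7 against day 0, and 2 lower (Sprr3 and Sbsn) at day 42 against day 7. In cluster 8 at day 7 against day 0, 1 was lower with a pseudocount of 1 CPM (Flg), 0 were higher without the 10 cells and 4 by the mean of CPM per cell. At day 42 against day 0, 0 were higher and 0 lower without the 10 cells and 0 lower by the mean of CPM per cell, and against day 7 1 was lower without the 10 cells (Krtdap). With a filter on cells, 1 gene (Sprr1a) was highest in cluster 12. Leaving out 10 cells takes a larger part of a library with fewer cells. The causes were not tested.

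Among the pathway genes called past 2-fold in all keratinocytes, leaving out cluster 12 changed the call of Tchh, from -1.07 to 1.23 at day 7 and from -1.61 to 0.67 at day 42, each against day 0, and of no other.

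Leaving out cluster 12 or cluster 5, and leaving out 10 cells or averaging CPM per cell within clusters, were chosen after seeing the data. No paired analysis was possible because each day has 1 library, and no replicate could be left out. Median-of-ratios scaling moved the median of all genes from -0.03 to 0.10 at day 42 against day 0, and totals without mitochondrial and ribosomal protein genes moved it to -0.14. At these depths genes under 10 CPM, such as Lor in cluster 5, rest on few UMIs.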
